A study of Arabidopsis thaliana with 2 samples.

Results

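The genes described here are 10 nuclear genes of the Calvin cycle, the pathway that fixes carbon dioxide in the chloroplast. The rule names them by locus identifier, out of 27444 nuclear protein-coding genes, and uses no measured value, but it was written with earlier results of these data known. They are the Rubisco small subunit genes RBCS1A (AT1G67090), RBCS1B (AT5G38430), RBCS2B (AT5G38420) and RBCS3B (AT5G38410), the Rubisco activase gene RCA (AT2G39730), the phosphoribulokinase gene PRK (AT1G32060), the plastid glyceraldehyde-3-phosphate dehydrogenase (GAPDH) genes GAPA1 (AT3G26650), GAPA2 (AT1G12900) and GAPB (AT1G42970), and the sedoheptulose-bisphosphatase gene SBPASE (AT3G55800). Every peak overlapping one of these genes, extended by 2000 bp on both sides, was taken.

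Binding of CCA1 was mapped by chromatin immunoprecipitation and sequencing (ChIP-seq) in Arabidopsis thaliana. The plants were cca1 lhy double mutants in the Col-0 accession that expressed CCA1-FLAG from the CCA1 promoter, and whole seedlings 14 days old were used. They grew at 22 °C in 12 h light and 12 h dark on medium with 2% sucrose and were fixed 1 h after lights on. Both libraries share this line, age and time. One was sequenced on an IonPGM and 1 on an Illumina GAII after different library kits. Sequencer and kit cannot be told apart, and whether one immunoprecipitation fed both libraries is not stated in the labels. No untagged or input library was analysed here. With 1 library per sequencer, no difference below has a replicate error or a test.

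CCA1 is a DNA-binding MYB protein of the plant clock, made mainly around dawn, and it was first isolated as a protein that binds the promoter of a light-harvesting gene. Rubisco joins carbon dioxide to ribulose bisphosphate; its large subunit is encoded in the chloroplast and its small subunits in the nucleus. Rubisco activase frees the active site of inhibitory sugar phosphates, plastid GAPDH carries out the reductive step, and sedoheptulose-bisphosphatase and phosphoribulokinase regenerate the acceptor sugar. These genes are strongly light-induced and many are under clock control in leaves.

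The deposited IonPGM list held 2901 peaks and the Illumina list 2954, and their read depth is unknown. Each peak carries the authors' score on an unstated scale, used here as a percentile rank within its own list, where 100 is the highest. A stretch common to overlapping peaks of both lists, by at least 1 bp, is called a shared segment. A gene-body peak has its centre inside the gene and more than 200 bp from both ends. A gene-end peak has its centre from 1000 bp outside to 200 bp inside an end. The gene table used gives no strand, so ends are named lower or higher by coordinate and promoters could not be told from 3' ends. As a check of the labels, known CCA1 targets ranked near the top of both lists: the highest shared segment had percentiles of 98.2 (IonPGM) and 99.7 (Illumina) at TOC1 and 99.6 and 99.9 at GI.

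Most CCA1 peaks at these 10 genes were centred inside the genes under the 200 bp rule. All 10 genes had an IonPGM peak within 2000 bp, against 16.1% of all protein-coding genes, and 7 had an Illumina peak, against 17%. A gene-body peak was present at 9 genes in the IonPGM list (3% of all genes) and at 5 in the Illumina list (1.91% of all genes). A gene-end peak was present at 1 gene in the IonPGM list (8.89% of all genes), which was SBPASE, and at 2 in the Illumina list (10.4% of all genes), PRK and SBPASE. The gene-end counts of 1 and 2 in 10 genes lie near the background, while the gene-body counts of 9 and 5 lie above it. Because the genes were picked with earlier results known, these counts are a description of them. Counting 500 bp inside a gene as its end gave gene-end peaks at 6 genes with IonPGM (9.98% of all genes) and 4 with Illumina (11.2%). Under that rule gene-body peaks were present at 6 genes with IonPGM (1.8% of all genes) and 4 with Illumina (0.966%). Among peaks with a score percentile above 50, gene-body peaks were present at 5 genes in the IonPGM list (1.25% of all genes) and at 0 in the Illumina list (0.696%). The members are 1165 to 2947 bp long, and in the 14487 genes of that length range the gene-body shares were 3.64% (IonPGM) and 2.08% (Illumina).

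**Figure D1:**
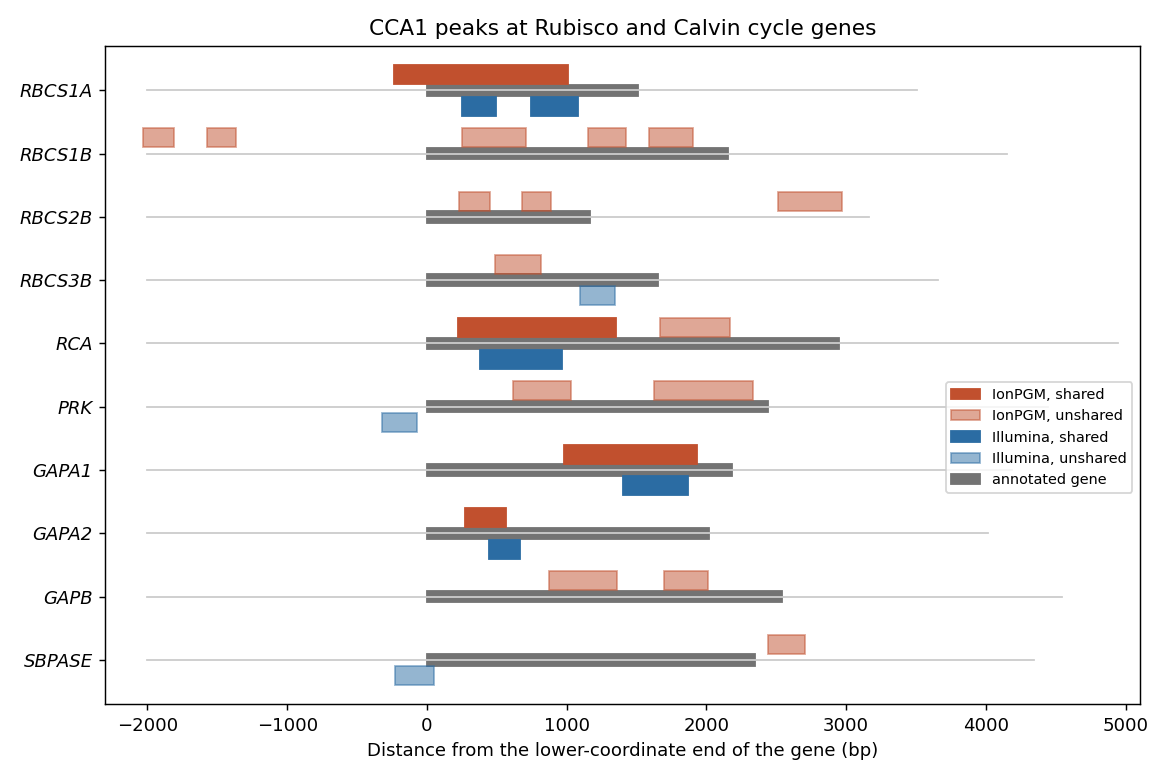
Peaks of each list drawn along the 10 genes, with distance in bp from the lower-coordinate end of each gene on the horizontal axis. IonPGM peaks stand above and Illumina peaks below the grey gene bar, shared peaks are in full colour and unshared ones pale, and the thin line marks the window of 2000 bp on each side. Every gene except SBPASE has an IonPGM peak wholly or mostly inside it. In the RBCS1B and RBCS2B rows, the IonPGM peaks drawn outside the gene lie within the other gene of this pair.

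Shared segments were present at 4 genes, RBCS1A, RCA, GAPA1 and GAPA2, against 8.89% of all genes. All of these segments were centred in the gene body, where 1.06% of all genes had one. No member had a shared segment at a gene end, where 5.27% of all genes had one. The genes drew on 16 distinct IonPGM peaks, 15 of them in a gene body, and on 8 Illumina peaks, 6 of them in a gene body. Of the 16 IonPGM peaks 4 (25.0%) overlapped an Illumina peak, against 34.5% of all 888 gene-body peaks and 52.2% of all nuclear peaks of that list. Of the 8 Illumina peaks 5 (62.5%) overlapped an IonPGM peak. The share was 53.9% of all 534 Illumina gene-body peaks and 51.7% of all nuclear Illumina peaks. The 16 and 8 peaks include gene-end peaks, none of which overlapped a peak of the other list. Among gene-body peaks alone, 4 of the 15 IonPGM and 5 of the 6 Illumina peaks overlapped one.

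Among the small subunit genes, RBCS1A carried the widest and highest-ranked IonPGM peak. On chromosome 1 the IonPGM peak ran from 25047922 to 25049167 (TAIR10), a width of 1246 bp, with a percentile of 91.2. It began 236 bp outside the lower-coordinate end and covered 66.9% of the gene. The Illumina list held 2 separate peaks that overlap it. One, at 25048408 to 25048649 with a percentile of 21.4, lay wholly within it, and the other, at 25048901 to 25049237 with a percentile of 27.8, lay within it over 79.2% of its width. RBCS1A thus stood high in the IonPGM list and in the lower part of the Illumina list. It was the only member with 2 Illumina gene-body peaks, a number that 0.0656% of all genes reached.

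The other small subunit genes, RBCS3B, RBCS2B and RBCS1B, lie one after the other on chromosome 5 within 8333 bp, separated by 2264 and 1095 bp. This stretch held 6 IonPGM peaks and 1 Illumina peak, and every one of these peaks overlapped an RBCS gene and none fell between them. RBCS3B had an IonPGM peak at 15377474 to 15377805 with a percentile of 72.3 and an Illumina peak at 15378080 to 15378334 with a percentile of 32.3. Both are inside the gene, but 274 bp lie between them, so the lists did not mark the same site.

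RBCS2B had 2 IonPGM peaks inside, at 15381138 to 15381355 and at 15381591 to 15381797, with percentiles of 13.2 and 13.7. RBCS1B had 3 IonPGM peaks inside, at 15383421 to 15383876, 15384322 to 15384590 and 15384755 to 15385071, with percentiles of 38.5, 67.9 and 20.6. Neither gene had an Illumina peak within 2000 bp. Because the genes are close together, the RBCS2B peaks also fell in the window of RBCS1B, and the first RBCS1B peak in that of RBCS2B, and none of these made a gene-end call. The nearest peaks just outside a window were also peaks of this cluster, 2251 bp from RBCS2B and 2496 bp from RBCS3B in the IonPGM list. RBCS copies are close relatives in sequence, and how reads that match several copies were handled is not given in the sources used here, so the split of signal between the copies is uncertain.

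**Figure D2:**
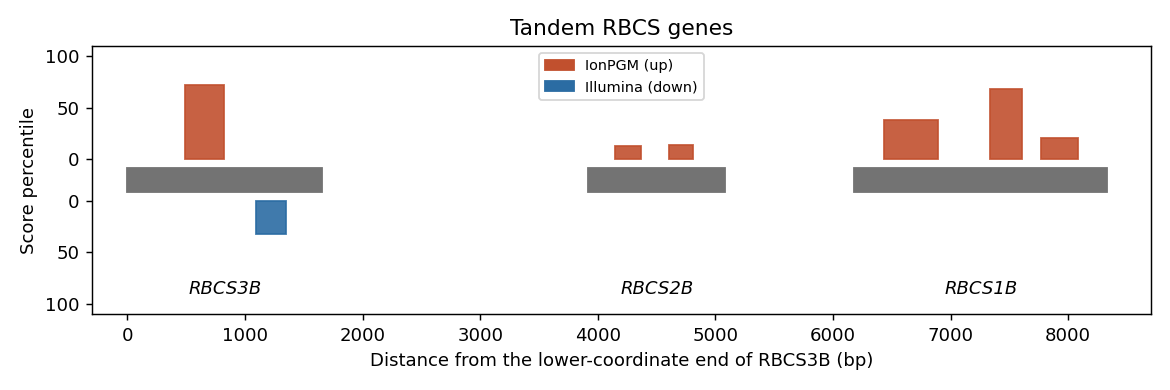
Peaks over the tandem genes RBCS3B, RBCS2B and RBCS1B, with distance in bp from the lower-coordinate end of RBCS3B on the horizontal axis. Bar height is the score percentile within each list, IonPGM upward and Illumina downward, and grey bars are the genes. The 6 IonPGM peaks fall on all 3 genes, and the 1 Illumina peak falls on RBCS3B.

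RCA, the activase gene on chromosome 2, had the highest-ranked peak of all 10 genes in the IonPGM list. Its first IonPGM peak ran from 16570967 to 16572099, was 1133 bp wide and ranked 68 of 2901 (percentile 97.7). A second followed after 314 bp, from 16572414 to 16572913, with a percentile of 88.7. The single Illumina peak, 16571126 to 16571713, lay wholly within the first IonPGM peak and had a percentile of 47.8. That was the highest percentile of any Illumina gene-body peak at these genes, yet it is below the middle of its list. IonPGM peaks covered 55.4% and the Illumina peak 20.0% of RCA.

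The plastid GAPDH genes differed among themselves. GAPA1, on chromosome 3, had an IonPGM peak of 951 bp at 9795844 to 9796794 with a percentile of 71.7, and an Illumina peak at 9796266 to 9796732 with a percentile of 36.9 lay wholly within it. GAPA2, on chromosome 1, had weaker and narrower peaks, at 4392712 to 4393005 with a percentile of 14.9 in the IonPGM list and at 4392886 to 4393105 with a percentile of 9.50 in the Illumina list, which overlapped by 120 bp. The GAPA1 segment lay toward the higher-coordinate end of its gene and the GAPA2 segment toward the lower-coordinate end, but without strand these cannot be compared as upstream or downstream. GAPB, which encodes the other subunit of the enzyme, had 2 IonPGM peaks, at 16128227 to 16128714 and 16129046 to 16129366 on chromosome 1, with percentiles of 32.9 and 35.4. It had no Illumina peak within 2000 bp.

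Under the 200 bp rule the few gene-end peaks were at PRK and SBPASE, and their counts lie near the background. Counting 500 bp inside a gene as its end adds other members. PRK, on chromosome 1, had 2 IonPGM peaks inside the gene, at 11532813 to 11533232 and 11533821 to 11534534, with percentiles of 29.3 and 23.7. Its Illumina peak, at 11531881 to 11532130 with a percentile of 28.4, lay 69 bp outside the lower-coordinate end and 682 bp from the nearest IonPGM peak. At PRK the lists therefore marked different places.

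SBPASE, on chromosome 3, was the single member with no gene-body peak in either list. Its IonPGM peak, at 20711734 to 20711996, lay 94 bp outside the higher-coordinate end, had a percentile of 0.17 (rank 2897 of 2901) and lay wholly within the neighbouring gene AT3G55810. Its Illumina peak, at 20709064 to 20709342, lay across the lower-coordinate end with a percentile of 83.9, the highest of all Illumina peaks at these genes. The 2 peaks are 2391 bp apart on opposite sides of the gene. Thus the member with the strongest Illumina peak had the weakest IonPGM peak.

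**Figure D3:**
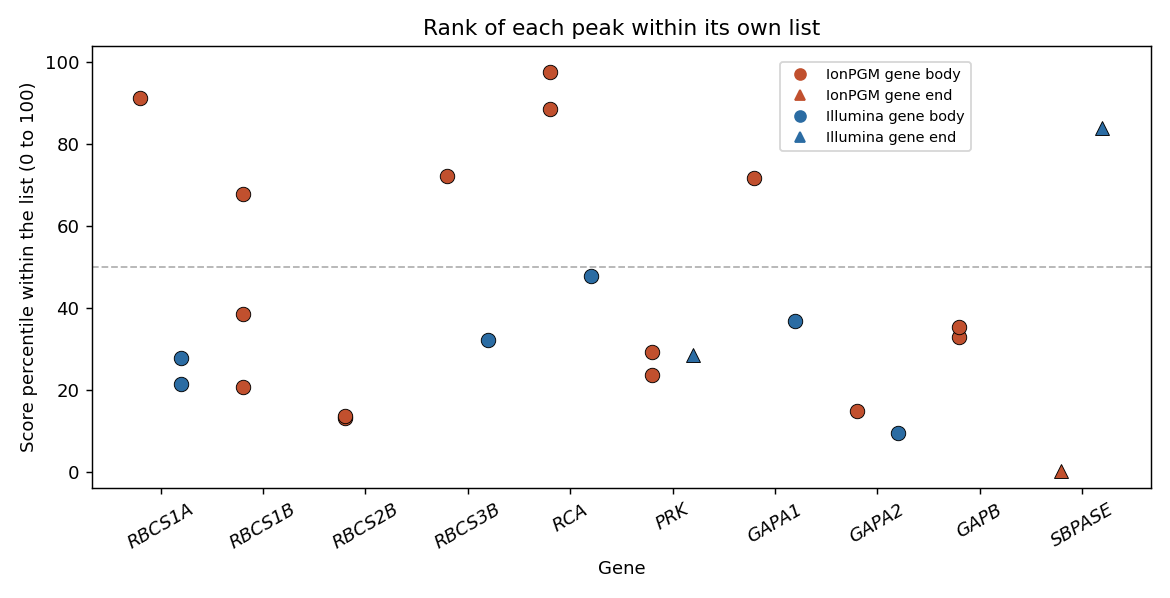
Score percentile (0 to 100, within the peak's own list) of every gene-body peak (circles) and gene-end peak (triangles) at the 10 genes, IonPGM left and Illumina right at each gene. The dashed line is the middle of a list. Of the Illumina peaks 1, at SBPASE, lies above it, and of the 16 IonPGM peaks 6 do.

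In rank the gene-body peaks were ordinary for their class. The 15 IonPGM gene-body peaks had a median percentile of 35.4 (range 13.2 to 97.7), and all 888 gene-body peaks of that list had 38.7. The 6 Illumina gene-body peaks had a median of 30.1 (9.50 to 47.8), and all 534 had 35.9. At all 5 shared pairs, which belong to 4 genes, the IonPGM percentile was the higher one, with a median of 91.2 in the IonPGM list and 27.8 in the Illumina list. The 2 pairs at RBCS1A have the same IonPGM peak, so its percentile of 91.2 enters that median 2 times. The other IonPGM percentiles were 97.7 at RCA, 71.7 at GAPA1 and 14.9 at GAPA2. Over all 303 shared pairs in gene bodies the IonPGM percentile was higher in 56.8%, with medians of 66.5 and 49.0, and over the 939 pairs at gene ends it was higher in 43%. The difference at a pair was largest at RBCS1A (69.8 percentile points) and smallest at GAPA2 (5.43).

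In width they were less ordinary. The IonPGM gene-body peaks had a median width of 420 bp (207 to 1246 bp), against 290.5 bp for all gene-body peaks and 253 bp for all nuclear peaks of the list. The peaks of RBCS1A and RCA were among the 35 nuclear IonPGM peaks at least 1000 bp wide, and 34 of those 35 were gene-body peaks. The Illumina gene-body peaks had a median width of 296 bp (220 to 588 bp), against 274.5 bp for all gene-body peaks, and no nuclear Illumina peak reached 1000 bp. At least 2 IonPGM gene-body peaks were found at 5 members, RBCS1B, RBCS2B, RCA, PRK and GAPB, and at 0.262% of all genes. Among related genes described below, 3 of 11 photorespiration genes (27.3%) and 1 of 14 other Calvin cycle genes (7.14%) also had at least 2.

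A large part of the length of these genes lay under an IonPGM peak, and a smaller part under an Illumina peak. IonPGM peaks covered 36.4% of the summed length of the 10 genes and Illumina peaks 10.3%, against 0.722% and 0.534% of the summed length of all genes. The median over the members was 40.0% with IonPGM (0 at SBPASE to 66.9% at RBCS1A) and 6.50% with Illumina (0 to 38.3% at RBCS1A). At every member except SBPASE the IonPGM coverage was the larger. Gene-body peaks without one in the other list were found at 4 members for IonPGM (RBCS1B, RBCS2B, PRK and GAPB; 1.96% of all genes) and at 0 for Illumina (0.864% of all genes). A gene-body peak of both lists was found at 5 members and 1.04% of all genes. Of the 9 members with an IonPGM gene-body peak these are 55.6%, against 286 of 824 genes (34.7%) in the genome.

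**Figure D4:**
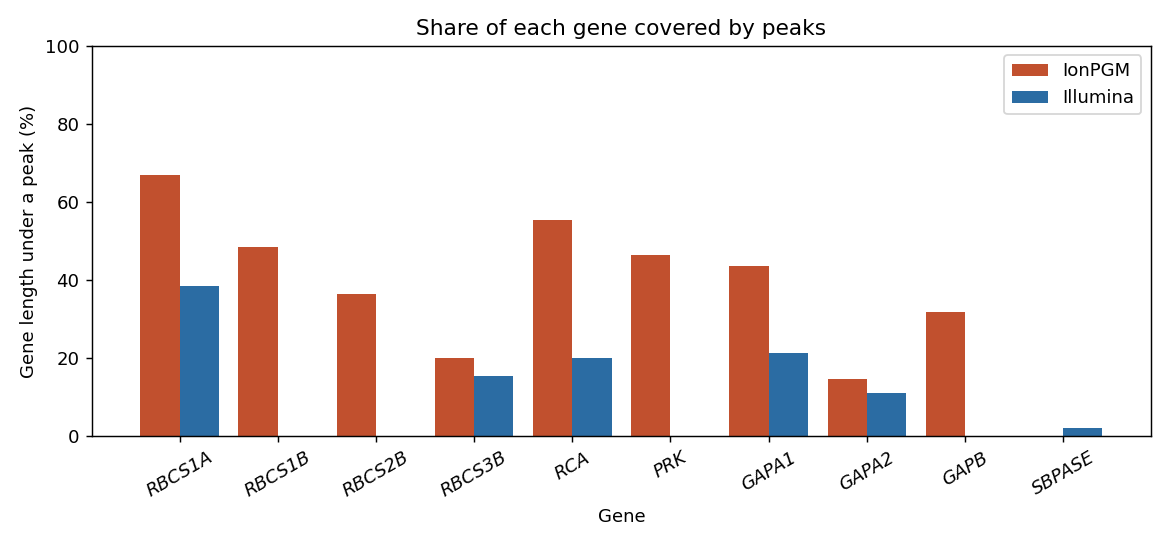
Percentage of each gene's length that lies under a peak, for the IonPGM list (left bar) and the Illumina list (right bar). IonPGM coverage is above Illumina coverage at 9 genes, and SBPASE has 2.09% Illumina and 0 IonPGM coverage.

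Neighbouring genes lay close to several of these peaks. The closest was NSI, 73 bp from the second IonPGM peak of PRK, and AT2G39725 lay 219 bp from the first peak of RCA. LBD24 lay 335 bp and LWD2, a clock gene, 970 bp from the IonPGM peak of GAPA1. AT1G12890 lay 319 bp from the IonPGM peak of GAPA2, SCAMP5 531 bp from the Illumina peak of PRK, AT3G55790 406 bp from the Illumina peak of SBPASE, ABA4 819 bp from the IonPGM peak of RBCS1A and AT1G42960 929 bp from the first peak of GAPB. Outside the RBCS cluster, AT3G55810 was the single other protein-coding gene that a peak of these genes overlapped.

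Both gene-body and gene-end peaks were found at other genes of carbon fixation. Of 14 other Calvin cycle genes 3 (21.4%) had an IonPGM gene-body peak, against 3% of all genes, and 1 (7.14%) an Illumina one, against 1.91%. An IonPGM gene-end peak was present at 3 (21.4%) of them, against 8.89% of all genes. With Illumina a gene-end peak was present at 2 (14.3%), near the 10.4% of all genes. IonPGM peaks covered 10.3% of the summed length of these 14 genes, against 0.722% for all genes. The genes with a gene-body peak were FBA1 and FBA2, which encode plastid aldolases, and the transketolase gene TKL1. FBA1 and FBA2 were named after their values were seen, and TKL1 was the one with gene-body peaks of both lists. FBA1 had IonPGM peaks at percentiles 88.3 and 68.4, and FBA2 had one of 1093 bp at 81.4. Shared segments were found at 3 of the 14 (21.4%), against 8.89% of all genes. At CP12-1 and CP12-2, which encode small proteins that bind GAPDH and phosphoribulokinase, the segment was at a gene end, with percentiles of 62.1 (IonPGM) and 76.3 (Illumina) at CP12-1 and 1.83 and 9.26 at CP12-2. At TKL1 it was in the gene body, with 3.48 and 10.2. The difference between these genes and the 10 members was not tested.

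Photorespiration, which recycles the product of oxygenation by Rubisco, had IonPGM gene-body peaks at 4 of 11 genes (36.4%, against 3% of all genes) and Illumina ones at 2 (18.2%, against 1.91%). IonPGM peaks covered 10.4% of the summed length of these 11 genes. Shared segments were found at 3 of the 11 (27.3%), against 8.89% of all genes. GLDP1, of the glycine decarboxylase complex, had its segment in the gene body with percentiles of 84.8 (IonPGM) and 13.0 (Illumina), and AGT1, an aminotransferase gene, had one in the gene body with 9.32 and 51.4. HPR1, the hydroxypyruvate reductase gene, had its segment at a gene end with 36.0 and 73.3. Of the 8 genes of the Rubisco assembly list 0 had an IonPGM gene-body peak, against 3% of all genes. An Illumina one was present at 1 (12.5%, against 1.91%), the chaperone gene RBCX1. RBCX1 also had a shared segment at a gene end (55.2 and 76.3), and AT3G47650 had one more than 1000 bp from the gene (34.5 and 84.1).

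Of the 2 cytosolic GAPDH genes, which serve glycolysis, only GAPC1 had a peak, and its place differed from that of the plastid genes' peaks. GAPC1 had a shared segment at a gene end, on chromosome 3 at 1080688 to 1080851, with percentiles of 41.2 (IonPGM) and 81.8 (Illumina), and no gene-body peak. GAPC2, named after its values were seen, had neither an IonPGM nor an Illumina peak within 2000 bp. All 3 plastid GAPDH genes had an IonPGM gene-body peak (3% of all genes) and none a gene-end peak (8.89%, or 10.4% with Illumina). GAPA1 and GAPA2 also had an Illumina gene-body peak (1.91% of all genes), and GAPB did not. The IonPGM peak of GAPA2, 274 to 567 bp inside the lower-coordinate end, counts as a gene-end peak under the 500 bp rule. Of the 35 genes in the 4 further lists, 14 (40%) had an IonPGM peak within 2000 bp, against 16.1% of all genes. An Illumina peak was present at 12 (34.3%, against 17%) and a shared segment at 9 (25.7%, against 8.89%). The remaining 18 had no peak from either sequencer within 2000 bp, and no share of all genes is given for that count.

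**Figure D5:**
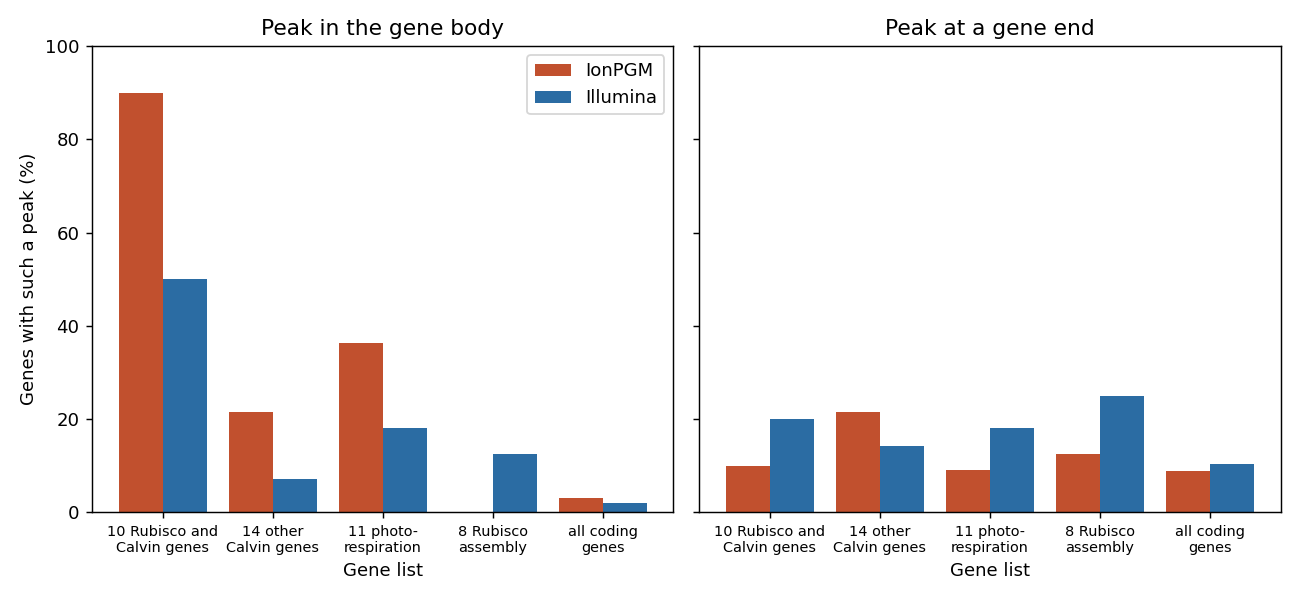
Percentage of genes with a gene-body peak (left panel) and a gene-end peak (right panel) in each list of genes, for IonPGM (left bars) and Illumina (right bars). The 10 Rubisco and Calvin genes reach 90% and 50% in the left panel, where all coding genes stand at 3% and 1.91%, and 10% and 20% in the right panel, where all coding genes stand at 8.89% and 10.4%.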

How the data were processed

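The deposited files are 1 peak list per library. The submitters' processing notes name Bowtie 0.12.7, SAMtools 0.1.18, MACS2 and the TAIR10 build. The calling threshold, use of a control and treatment of reads with several matches were not given in the sources used here. Each peak's score is the authors' deposited value on an unstated scale and was turned into a percentile within its list. No depth is known, so no interval or detection limit was set. Files were read as 0-based half-open and positions are printed 1-based.

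Genes came from an NCBI RefSeq table on TAIR10.1, from which no coordinate is printed; all 10 members and all 35 further genes were found by locus identifier. Gene extents there can differ from those of TAIR10. Except for genes without any peak, counts of genes are set beside the share of all 27444 nuclear protein-coding genes called by the same rule. No test was run: there is 1 library per sequencer, and genes are not replicates. The members, lists and rules were chosen with earlier results of these data known. Genes named are all members, genes within 1000 bp of their peaks, up to 4 genes per further list with a shared segment, TOC1 and GI as a label check, and FBA1, FBA2 and GAPC2, which fall outside this rule and were chosen after their values were seen. No genome sequence was used here, so no sequence or motif is shown. The code for the placing rules was checked on simulated peaks planted by the same rules, which checks the code only. Python 3.11.15, NumPy 2.4.6, pandas 2.3.3, SciPy 1.17.1 and Matplotlib 3.10.9 were used.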

Additional observations from a re-analysis of the deposited data

How the results depend on the processing

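Of 34 recomputed counts 23 stayed within 1.5 times the reported one. Keeping peaks with a score percentile above 50 moved all 8 counts: 5 members had an IonPGM peak within 2000 bp (8.11% of all genes), 1 an Illumina peak (8.45%, so near the background) and 0 a shared segment (4.32%). A gene-body peak was left at 5 with IonPGM (1.25%) and 0 with Illumina (0.696%), and a gene-end peak at 0 with IonPGM (4.44%) and 1 with Illumina (5.16%). Of the 35 further genes 2 had a shared segment (4.32%). Counting 500 bp inside a gene as its end gave 6 members with an IonPGM (9.98% of all genes) and 4 with an Illumina gene-end peak (11.2%), and left 6 (1.8%) and 4 (0.966%) with a gene-body peak. Without any window 4 of the 35 further genes had a shared segment (2.96% of all genes). Windows of 1000 bp, peak centres in the window, sharing by 50% of the shorter peak, 0 bp inside or 500 bp outside an end, and peaks wholly within the gene left every count they were applied to within 1.5 times. The shared segments at these genes thus rest on Illumina peaks below the middle of their list. Unknown depth limits what the absence of a peak shows. No paired analysis was possible because each sequencer has 1 library and the labels number no replicates.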
